A study of Mus musculus with 9 samples.

Results

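Transcripts of 46 lysosomal genes, chosen by name, were followed in mouse embryonic stem cells: 25 encode luminal proteins (9 cathepsins, 10 other peptidases and glycosidases, 6 proteins of lipid breakdown), 6 encode membrane proteins and 15, named Atp6, encode the pump and its accessory proteins. By exact name 45 of the 46 were found among 24044 named rows, on 46 rows, since Scarb2 stands on 2 rows. Glb1, the beta-galactosidase of the lysosome, is listed only in a row joined with Tmppe and was not counted. Ctsh and Ctso did not reach an FPKM, a fragment count scaled to transcript length and library size, of 1 in at least 3 libraries, which left 44 rows of 43 genes among the 12711 rows tested.

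Lysosomes are acidic organelles in which hydrolases break down proteins, glycans and lipids delivered by endocytosis and autophagy. A proton pump, the V-ATPase, keeps their interior acidic: its V1 sector hydrolyses ATP in the cytosol and its V0 sector carries protons across the membrane. The kinase complex mTORC1 is active at the lysosomal surface, and when it is inhibited the factors TFEB and TFE3 enter the nucleus and bind a DNA element, CLEAR, that contains the letters CACGTG.

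The data are RNA-seq of the established mouse embryonic stem cell lines E14, v6.5 and Oct4 GiP (3 lines, passages 20 to 23), each kept for 2 weeks on gelatin as Serum, 2i or Paused cells. INK128, which inhibits mTor, was present at 200 nM over those 2 weeks in Paused cells; the labels name no treatment for Serum cells other than Serum, and they do not list the agents of 2i, which in this field are inhibitors of MEK and GSK3. The labels do not give the base medium of the Paused cells. Each line gave 1 library per condition, so a condition has 3 libraries (n = 3), and nothing says that any culture was repeated within a line. A series of 3 values below is always in the order E14, v6.5, Oct4 GiP.

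The promoters of 4 of these genes are shown first, because they carry the letters of the CLEAR element close to the transcription start. Each line gives 120 bases before to 30 bases after the start on the strand of the gene, from RefSeq on GRCm38.p6, with CACGTG in capitals and with neighbouring capitals where GTCACGTG or its reverse complement CACGTGAC is present. They are Mcoln1 at chr8:3500399-3500548 (plus strand), Lamp1 at chr8:13159041-13159190 (plus strand), Ctsa at chr2:164833653-164833802 (plus strand; the other RefSeq start listed for Ctsa had 0 copies) and Atp6v0d1 at chr8:105566035-105566184 (minus strand).
Mcoln1: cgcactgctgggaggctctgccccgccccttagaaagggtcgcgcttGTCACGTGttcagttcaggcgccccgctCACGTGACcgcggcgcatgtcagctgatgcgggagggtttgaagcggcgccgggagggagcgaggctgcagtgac
Lamp1: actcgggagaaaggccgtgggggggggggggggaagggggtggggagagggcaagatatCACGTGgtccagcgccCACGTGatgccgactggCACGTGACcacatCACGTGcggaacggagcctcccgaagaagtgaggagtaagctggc
Ctsa: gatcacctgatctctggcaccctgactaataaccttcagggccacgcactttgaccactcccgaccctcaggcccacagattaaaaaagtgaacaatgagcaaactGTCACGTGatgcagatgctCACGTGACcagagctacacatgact
Atp6v0d1: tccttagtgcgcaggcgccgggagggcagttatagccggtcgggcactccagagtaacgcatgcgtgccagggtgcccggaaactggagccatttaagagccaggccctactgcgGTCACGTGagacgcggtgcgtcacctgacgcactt
The Lamp1 stretch holds 4 copies of CACGTG, at -61, -45, -28 and -15 from the start. Mcoln1 has copies at -71 and -45 and Ctsa at -12 and 6, both pairs within GTCACGTG or its reverse complement. Atp6v0d1 has a single copy, at -3. A RefSeq window from 250 bases before to 50 bases after a start was given for 38 of the 46 genes. On either strand, 14 of the 38 (36.8%) held CACGTG in such a window, against 12.2% of 9037 tested genes and 8.09% of all 27025 genes with a window. The longer GTCACGTG, which contains CACGTG, was in 9 of the 38 (23.7%), against 4.96% of the tested genes. The palindrome GTCACGTGAC was in 0 of the 38 and in 0.841% of the tested genes. These are counts of letters, with no test.

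Changes are given in FPKM, with counts of calls also on the authors' second scale, normalized expression, which is FPKM multiplied by 1 constant per library. That constant was 3.59 ± 0.17 for Serum libraries, 2.80 ± 0.36 for 2i libraries and 1.88 ± 0.095 for Paused libraries (SD, n = 3), so Paused libraries are scaled down against Serum ones by the same factor for every gene. The median log2 fold change of all tested genes was -0.01 in FPKM and -0.88 in normalized expression for Paused against Serum, 0.02 and -0.33 for 2i against Serum, and -0.03 and -0.56 for Paused against 2i. The 10 embryonic stem cell markers listed, such as Pou5f1, Sox2 and Nanog, were all above the testing limit. The macrophage markers, of a cell type rich in lysosomes, were under FPKM 1 in every library for 9 of 9 matched genes, with Adgre1 and Tyrobp listed at 0 in all 9 libraries and summed levels of 0.298 to 1.18. Exons of Ctsa, Ctsb, Ctsl, Ctsz, Hexa, Ppt1, Lamp1, Npc1, Atp6v0b, Atp6v1h and Atp6v1e1 overlap a gene on the opposite strand, and those of Ctsl and Ctsd overlap a same-strand gene model. Atp6v0c and Cd63 have named pseudogenes. How reads were assigned between overlapping genes, strands or near-identical copies is not stated, so levels of these genes are uncertain to that extent.

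The most abundant members, per length, were Atp6v0c with a mean of 366 FPKM over the 9 libraries, Lamp1 with 196, Atp6v1f with 181, Ctsd with 148, Cd63 with 128 and Psap with 121. Summed over its members, the luminal class measured 539.7 ± 13.0 FPKM in Serum, 1081 ± 161 in 2i and 694.5 ± 13.0 in Paused libraries (SD, n = 3). The membrane class measured 331.7 ± 18.9, 521.1 ± 31.2 and 355.1 ± 3.75 FPKM in the same order, and the pump class 1082 ± 33.4, 1452 ± 55.6 and 1049 ± 45.6. The luminal sum thus stood above Serum in both other conditions in every line. The pump sum stood above Serum in 2i and, in Paused, below it in E14 and v6.5 and above it in Oct4 GiP. A sum weighs abundant genes most. Row by row in FPKM, the classes differed less in Paused against Serum. The median log2 fold change was 0.19 over 22 tested luminal rows (14 above 0) and 0.15 over 15 pump rows (9 above 0). In normalized expression the Paused sums were the lowest in all 3 classes: the luminal class read 1941 ± 133 in Serum, 2986 ± 119 in 2i and 1307 ± 61.5 in Paused, and the pump class 3886 ± 104, 4063 ± 589 and 1978 ± 183.

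**Figure D1:**
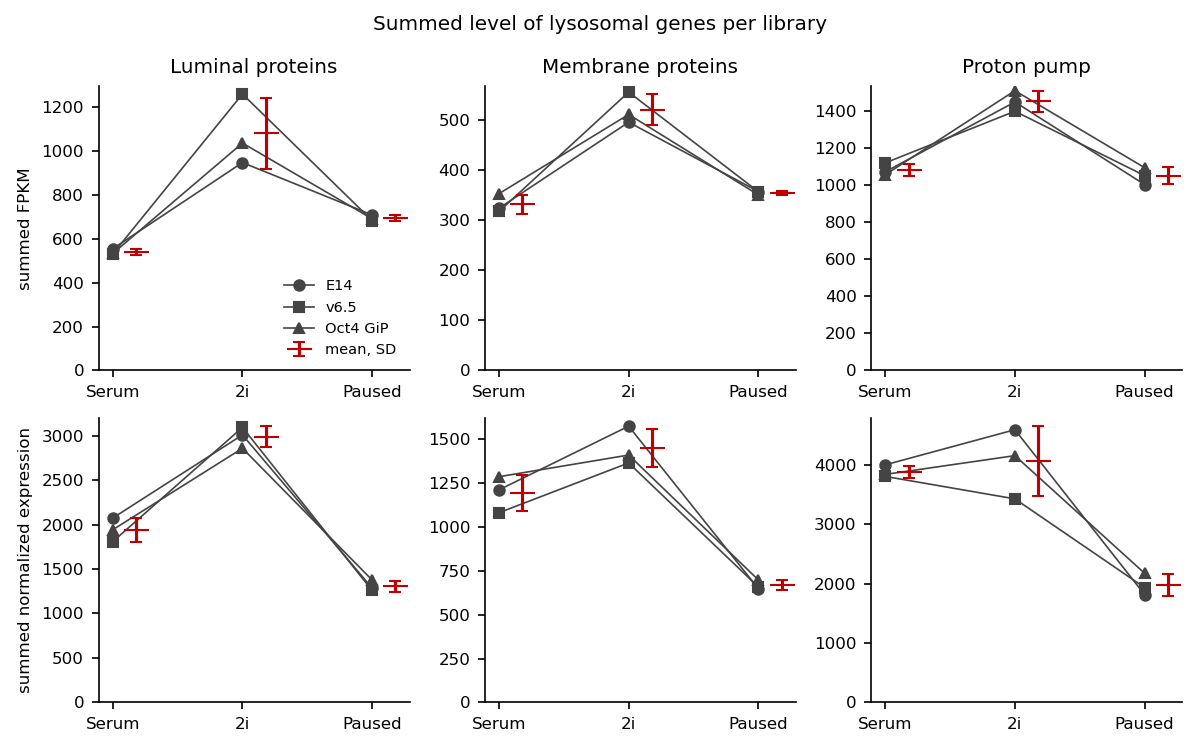
Summed level of the luminal, membrane and pump genes in each library (y axes; top row FPKM, bottom row normalized expression) by condition (x axis), with 1 marker and line per cell line and the mean with SD of 3 lines in red. In FPKM the 3 luminal sums in Paused lie above the 3 in Serum; in normalized expression the Paused sums are the lowest in every class.

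Differences between conditions were tested gene by gene in 1 limma-trend fit on log2(FPKM + 1) over all 9 libraries with the cell line as a block; a gene is called at a Benjamini-Hochberg adjusted p under 0.05 over the 12711 rows. A log2 fold change is on this scale, which understates changes of low genes; the value after ± is the limma standard error. The F test over the 3 conditions called 32 of the 44 member rows, against 54.8% of all tested rows.

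In FPKM, cells in 2i had higher transcript levels of most lysosomal genes than Serum cells. Of the 44 member rows 31 were called higher and 1 lower, where 21.7% of all tested rows were called higher and 18.9% lower. The median log2 fold change of the members was 0.57, against 0.02 for all tested rows. In such bulk libraries fewer cells with a transcript and less of it per cell cannot be told apart. By class, 14 of 22 luminal rows, 5 of 7 membrane rows and 12 of 15 pump rows were higher. The luminal and pump classes had 0 rows called lower by limma and 0 lower at an unadjusted p under 0.05. In FPKM the groups did not overlap for 27 rows with 2i above and 1 row with 2i below, where 25.6% and 22.4% of all rows stood apart in these directions.

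Among luminal proteins, the largest change was in Hexa, the alpha subunit of beta-hexosaminidase, which trims GM2 ganglioside (GENCODE vM21, chr9:59539540-59565109). Hexa measured 23.3, 17.7 and 16.1 FPKM in Serum, 68.2, 66.9 and 71.1 in 2i and 45.8, 32.5 and 29.1 in Paused. The 3 conditions did not overlap, with 2i highest and Serum lowest (2i against Serum 1.82 ± 0.14, adjusted p = 0.000903 by limma). Asah1, acid ceramidase, measured 24.4, 32.8 and 26.4 FPKM in Serum and 53, 128 and 93.8 in 2i (1.60 ± 0.18, adjusted p = 0.00188), E14 being the lowest of the 3 lines in 2i. Its Paused values, 37.9, 50.6 and 42, also lay above every Serum value, and the change was not called (0.63 ± 0.18, adjusted p = 0.057).

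Cathepsins went separate ways. Ctsb, a cysteine protease (chr14:63122462-63145923), measured 13.8, 13.9 and 14.2 FPKM in Serum, 41.7, 39 and 43.1 in 2i and 12.6, 12 and 13.7 in Paused. The 2i libraries stood far above all others, at 41.3 ± 2.06 FPKM against 14 ± 0.21 in Serum (SD, n = 3; log2 fold change 1.50 ± 0.08, adjusted p = 0.000564 by limma). Ctsc, the dipeptidyl peptidase that activates serine proteases of immune cells (chr7:88278085-88310888), measured 3.09, 5.81 and 2.09 FPKM in Serum, 16.2, 14.8 and 6.44 in 2i and 1.33, 1.22 and 0.829 in Paused. Ctsc was called higher in 2i than in Serum (1.52 ± 0.24, adjusted p = 0.00479) and lower in Paused than in Serum (-1.06 ± 0.24, adjusted p = 0.0313), and no group overlapped another. Ctsd, the main aspartic protease of the lysosome, measured 112, 117 and 113 FPKM in Serum, 201, 221 and 198 in 2i and 131, 123 and 112 in Paused, so that the 2i libraries alone stood apart (0.85 ± 0.08, adjusted p = 0.00134 against Serum). Ctsz, a carboxypeptidase, had the lowest luminal fold change of this comparison and was not called: 50.3, 48.8 and 54.7 FPKM in Serum and 31.6, 55.1 and 42.8 in 2i (-0.28 ± 0.18, adjusted p = 0.262).

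Lipid breakdown was the luminal group with the largest median in 2i, 1.11, with 5 of 6 rows higher. Psap, the precursor of the saposins that present sphingolipids to their hydrolases, measured 90.6, 71.5 and 67.4 FPKM in Serum, 186, 269 and 154 in 2i and 90.7, 90.0 and 66.3 in Paused (1.37 ± 0.16, adjusted p = 0.00224 for 2i against Serum). Npc2, which hands cholesterol to the membrane protein Npc1, measured 22.5, 20.7 and 16.2 FPKM in Serum, 46.3, 58.1 and 55.3 in 2i and 25.3, 20.6 and 23.9 in Paused (1.39 ± 0.16, adjusted p = 0.00194). In both genes the 2i libraries lay above all others and the Serum and Paused ranges overlapped. Smpd1, acid sphingomyelinase, and the thioesterase Ppt1 were also called higher (0.39 ± 0.10 and 0.86 ± 0.08), and Lipa, acid lipase, was not (-0.14 ± 0.17, adjusted p = 0.532).

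Of the 9 tested glycosidases and other peptidases, 4 were called higher in 2i: Hexa, the sialidase Neu1 (1.15 ± 0.13), the peptidase Tpp1 (0.89 ± 0.12) and the glycogen-degrading Gaa (0.88 ± 0.28, adjusted p = 0.0487). The mannosidases Man2b1 (0.32 ± 0.17, adjusted p = 0.185) and Manba (0.78 ± 0.45, adjusted p = 0.205) were not called, nor were Gla, Gusb and Naglu. Manba ran from 20.4 to 90.7 FPKM over the 9 libraries, with overlap between all conditions. The row that joins Glb1 with Tmppe, which is no member row, measured 26.3, 20.8 and 21.6 FPKM in Serum, 60.4, 71.5 and 72.5 in 2i and 43.1, 46.2 and 52.3 in Paused, 3 ranges without overlap.

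The membrane proteins Lamp1 and Lamp2 form much of the glycoprotein coat inside the lysosomal membrane, and Lamp2 also serves as the receptor of chaperone-mediated autophagy. Lamp2 (chrX:38401357-38456454) measured 7.06, 5.8 and 6.79 FPKM in Serum, 22.4, 24.7 and 28.8 in 2i and 12, 10.2 and 12.4 in Paused, with 2i highest and no overlap (1.80 ± 0.11, adjusted p = 0.000657 for 2i against Serum). Lamp1, whose promoter is shown above, measured 126, 165 and 179 FPKM in Serum, 224, 276 and 269 in 2i and 147, 189.8 and 187 in Paused (0.72 ± 0.07, adjusted p = 0.00167); the Serum and Paused ranges overlapped. Cd63, a tetraspanin of late endosomes, measured 136, 94.3 and 100.4 FPKM in Serum, 200.1, 199 and 157 in 2i and 119, 83 and 67.8 in Paused (0.76 ± 0.13, adjusted p = 0.00682). Mcoln1, the calcium channel TRPML1, measured 11.4, 22.9 and 16.5 FPKM in Serum and 19.7, 28.1 and 29.6 in 2i. It was higher in 2i in each of the 3 lines while the groups overlapped (0.61 ± 0.13, adjusted p = 0.0126). Npc1, the cholesterol exporter, was called at 0.40 ± 0.13, adjusted p = 0.0427.

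Scarb2, the receptor that carries glucocerebrosidase to lysosomes (chr5:92441314-92506833), was the membrane gene called lower in 2i. On its row with the higher level it measured 29.2, 18.9 and 37.8 FPKM in Serum, 14.8, 12.5 and 12.1 in 2i and 42.7, 24.7 and 44.2 in Paused, the 2i libraries lying below all others (-1.02 ± 0.19, adjusted p = 0.0088). The row with the lower level, 1.61 to 4.58 FPKM, was not called in any comparison. The table gives no positions, so which transcripts the 2 rows stand for is unknown.

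Of the 15 pump rows 12 were called higher in 2i than in Serum, with a median of 0.40 over the class, against 0.86 over the luminal rows. The accessory protein Atp6ap2, the (pro)renin receptor (chrX:12587801-12617049), measured 15.5, 15.5 and 15 FPKM in Serum, 29.9, 33.5 and 34.9 in 2i and 23.7, 24.6 and 25.7 in Paused, in 3 ranges without overlap (1.05 ± 0.08, adjusted p = 0.000903). Atp6ap1, the other accessory protein, measured 21.9, 22.7 and 20.8 FPKM in Serum, 33, 36.9 and 37.7 in 2i and 27.8, 21.6 and 24.6 in Paused (0.69 ± 0.12, adjusted p = 0.00599). The catalytic V1 subunit Atp6v1a measured 33.6, 36.9 and 37.8 FPKM in Serum, 48.9, 70.4 and 75.7 in 2i and 34.9, 29.2 and 33.2 in Paused (0.81 ± 0.15, adjusted p = 0.0087). In the V0 sector, Atp6v0b of the proton-carrying ring measured 62, 63.2 and 56.5 FPKM in Serum, 113, 96.7 and 105 in 2i and 74.7, 73.5 and 74.8 in Paused (0.78 ± 0.08, adjusted p = 0.00173). Atp6v0c, the ring subunit with the highest level (chr17:24163866-24169702), measured 361, 331 and 314 FPKM in Serum, 480.2, 449 and 523 in 2i and 269, 272 and 293 in Paused, again with no overlap (0.53 ± 0.09, adjusted p = 0.00613). The called sectors were 4 of 5 V0 rows, 6 of 8 V1 rows and both accessory rows. Not called were Atp6v0e, at 55.4, 66.7 and 52.7 FPKM in Serum and 56.5, 40.8 and 46.8 in 2i (-0.28 ± 0.14, adjusted p = 0.154), Atp6v1e1 (0.17 ± 0.11) and Atp6v1f (0.22 ± 0.10).

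In normalized expression 15 member rows were called higher in 2i than in Serum and 3 lower, where 9.76% of all rows were higher and 35.7% lower. The members' median there was 0.21, against -0.33 for all rows. The 15 included Hexa, Lamp2, Asah1, Ctsb, Ctsc, Ctsa, Psap and Npc2, and 2 of the 15 pump rows, Atp6v1a and Atp6ap2. Scarb2 on its row with the higher level, Ctsz and Atp6v0e were the 3 called lower. Atp6v0d1 (-0.06), Atp6v1b2 (-0.10) and Atp6v1d (-0.01), called higher in FPKM, had values just below 0 on this scale. With single libraries left out, 20 to 32 member rows were called higher in FPKM, where 12.9% to 21.6% of all rows were. Of the 32 member calls 20 held without any single library.

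**Figure D2:**
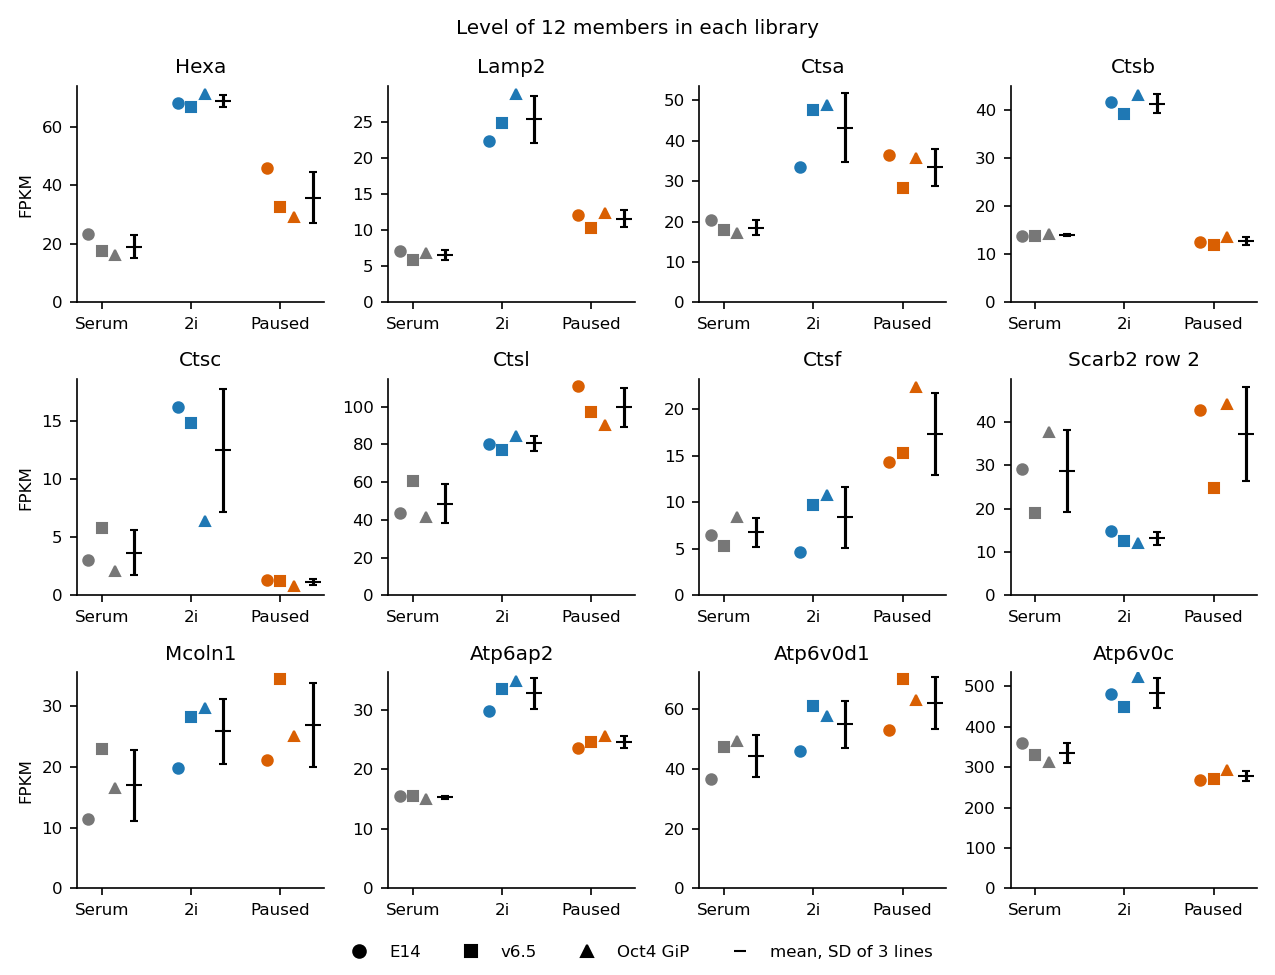
FPKM (y axes, starting at 0) of 12 member rows in each library by condition (x axis), with circles for E14, squares for v6.5, triangles for Oct4 GiP and the mean with SD of the 3 lines. Hexa, Lamp2 and Atp6ap2 were highest in 2i and intermediate in Paused; Ctsb and Ctsc were high in 2i alone; Ctsl and Ctsf were highest in Paused.

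The comparison of Paused with Serum cells asks which lysosomal transcripts changed under the mTor inhibitor. In FPKM a smaller set of genes was higher: 11 of 44 member rows, with 1 lower, where 7.64% of all tested rows were called higher and 10.5% lower. The median of the members was 0.16, against -0.01 for all tested rows. The rows called were 7 luminal rows higher (with 1 lower), 2 membrane rows and 2 pump rows. In FPKM the groups stood apart for 15 rows with Paused above and 7 with Paused below, where 17.3% and 21.3% of all rows did. In normalized expression the same comparison called 0 rows higher and 31 lower by limma, with 0 higher at an unadjusted p under 0.05. Over all rows 0.378% were higher and 76.9% lower on that scale, and the members' median was -0.72 against -0.88.

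The largest rise in FPKM was in Ctsf, a cysteine cathepsin (chr19:4855130-4860918), at 6.53, 5.34 and 8.44 FPKM in Serum, 4.62, 9.69 and 10.8 in 2i and 14.3, 15.2 and 22.3 in Paused. The Paused libraries stood above every other library (1.23 ± 0.21, adjusted p = 0.019 by limma), while Serum and 2i overlapped (0.22 ± 0.21, adjusted p = 0.443 for 2i against Serum). Ctsl, a broad endopeptidase of the lysosome (chr13:64359337-64370890), measured 43.7, 60.5 and 41.7 FPKM in Serum, 80.0, 77.1 and 84.7 in 2i and 111, 97.5 and 90.6 in Paused. Its 3 ranges did not overlap, and the step from Serum was called for Paused (1.04 ± 0.15, adjusted p = 0.0139) and for 2i (0.74 ± 0.15, adjusted p = 0.0109). Ctsf and Ctsl were the 2 rows of the 11 whose values stayed above 0 in normalized expression, at 0.40 and 0.12, neither called there.

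Hexa, given above, was higher in Paused than in Serum by 0.87 ± 0.14, adjusted p = 0.016. Ctsa, the serine carboxypeptidase that protects Neu1 and beta-galactosidase, measured 20.5, 18 and 17.1 FPKM in Serum, 33.4, 47.6 and 48.8 in 2i and 36.6, 28.2 and 35.7 in Paused (0.82 ± 0.18, adjusted p = 0.0313); the Serum libraries lay below all others. Its partner Neu1 moved by 0.58 ± 0.13, adjusted p = 0.0327, from 4.31 ± 0.375 to 6.94 ± 0.556 FPKM (SD, n = 3). Tpp1 (0.59 ± 0.12, adjusted p = 0.0257) and Ppt1 (0.50 ± 0.08, adjusted p = 0.0177), whose loss causes neuronal ceroid lipofuscinoses, completed the luminal rows called higher. In normalized expression Ppt1 was called lower (-0.38), and Hexa (-0.03), Ctsa (-0.08), Neu1 (-0.23) and Tpp1 (-0.31) were not called. Ctsc, the row called lower, was lower on both scales (-2.09 in normalized expression), and in FPKM it was not called without the line block (adjusted p = 0.0976). Lipid breakdown had 1 of 6 rows called, Ppt1.

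In the membrane class Lamp2 was higher (0.73 ± 0.11, adjusted p = 0.0146). Mcoln1, at 21, 34.4 and 25.1 FPKM in Paused, exceeded its Serum value in each line, and its groups overlapped because v6.5 in Serum lay above E14 in Paused (0.66 ± 0.13, adjusted p = 0.0239; adjusted p = 0.148 without the line block). Lamp1 (0.16 ± 0.07, adjusted p = 0.178), Npc1 (0.30 ± 0.13, adjusted p = 0.139) and Cd63 (-0.31 ± 0.13, adjusted p = 0.149) were not called. None of the 7 membrane rows was called lower by limma, and 0 were lower at an unadjusted p under 0.05.

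In the pump, Atp6ap2 was higher (0.65 ± 0.08, adjusted p = 0.013), as was Atp6v0d1, the V0 subunit that couples the rotor to the central stalk. Atp6v0d1 measured 36.5, 47.4 and 49.3 FPKM in Serum, 46, 61.1 and 57.8 in 2i and 53, 70.2 and 63.3 in Paused (0.48 ± 0.07, adjusted p = 0.0154; adjusted p = 0.0897 without the line block). In normalized expression it was called lower (-0.44). Of the 8 V1 rows limma called 0 in either direction, with 2 higher and 1 lower at an unadjusted p under 0.05. Atp6v0e, at 45.9, 39.9 and 40.6 FPKM in Paused against 55.4, 66.7 and 52.7 in Serum, had the lowest value of the class (-0.45 ± 0.14, adjusted p = 0.0669), its groups apart. The ring subunit Atp6v0c (-0.27 ± 0.09, adjusted p = 0.0827) and the V1 subunit Atp6v1f also lay below Serum in every library without being called. Atp6v1f measured 171, 201 and 172 FPKM in Serum, 222, 216 and 198 in 2i and 132, 161 and 158 in Paused (-0.27 ± 0.10, adjusted p = 0.105).

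The calls in Paused against Serum rest on few libraries. Without the Oct4 GiP Serum library, or without any 1 of the 3 Paused libraries, limma called 0 member rows higher and 0 lower, with 12 to 14 higher and 1 to 5 lower at an unadjusted p under 0.05. Without those same libraries 7 to 20 of all 12711 rows were called higher and 4 to 21 lower. Without the E14 or the v6.5 Serum library 5 member rows were called higher, where 2.42% and 2.23% of all rows were. Fibroblast markers summed to 27.0 to 126 FPKM in Serum, 5.07 to 11.4 in Paused and 2.85 to 5.46 in 2i, with 5 of 9 genes, including Col1a2, Col3a1 and Dcn, under FPKM 1 in every library. Tagln made up most of the highest of these sums (114 of 126 FPKM), and Pdgfrb of the same list was higher in 2i than in Serum, with means of 2.16 and 0.616 FPKM. Trophoblast markers, with Elf5 of the 10 genes under 1 throughout, summed to 69.4 to 326 FPKM in Serum, 48.4 to 75.1 in 2i and 29.7 to 52.0 in Paused. The keratins Krt8 and Krt18 made up most of the highest of these sums (161 and 108 FPKM in E14 in Serum). The means of Tfap2c (29.9 in Serum, 42.9 in 2i) and Eomes (2.13 and 4.10) were higher in 2i. Of the 7 tested genes of this list limma called 5 lower in 2i than in Serum, where 18.9% of all rows were. Extraembryonic endoderm markers summed to 96.1 to 139, 106 to 211 and 41.7 to 81.5 FPKM in Serum, 2i and Paused, with Gata6, Sox17 and 6 more of the 13 under FPKM 1 throughout. Sparc made up most of that sum (122 of 139 FPKM in E14 in Serum), while the means of Lama1 (8.53 in Serum, 12.3 in Paused) and Dab2 (1.52 and 1.82) were not lower in Paused. Limma called 1 of the 5 tested endoderm genes lower and 0 higher in Paused than in Serum. The part of these cell type markers in the lysosomal results was not tested.

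**Figure D3:**
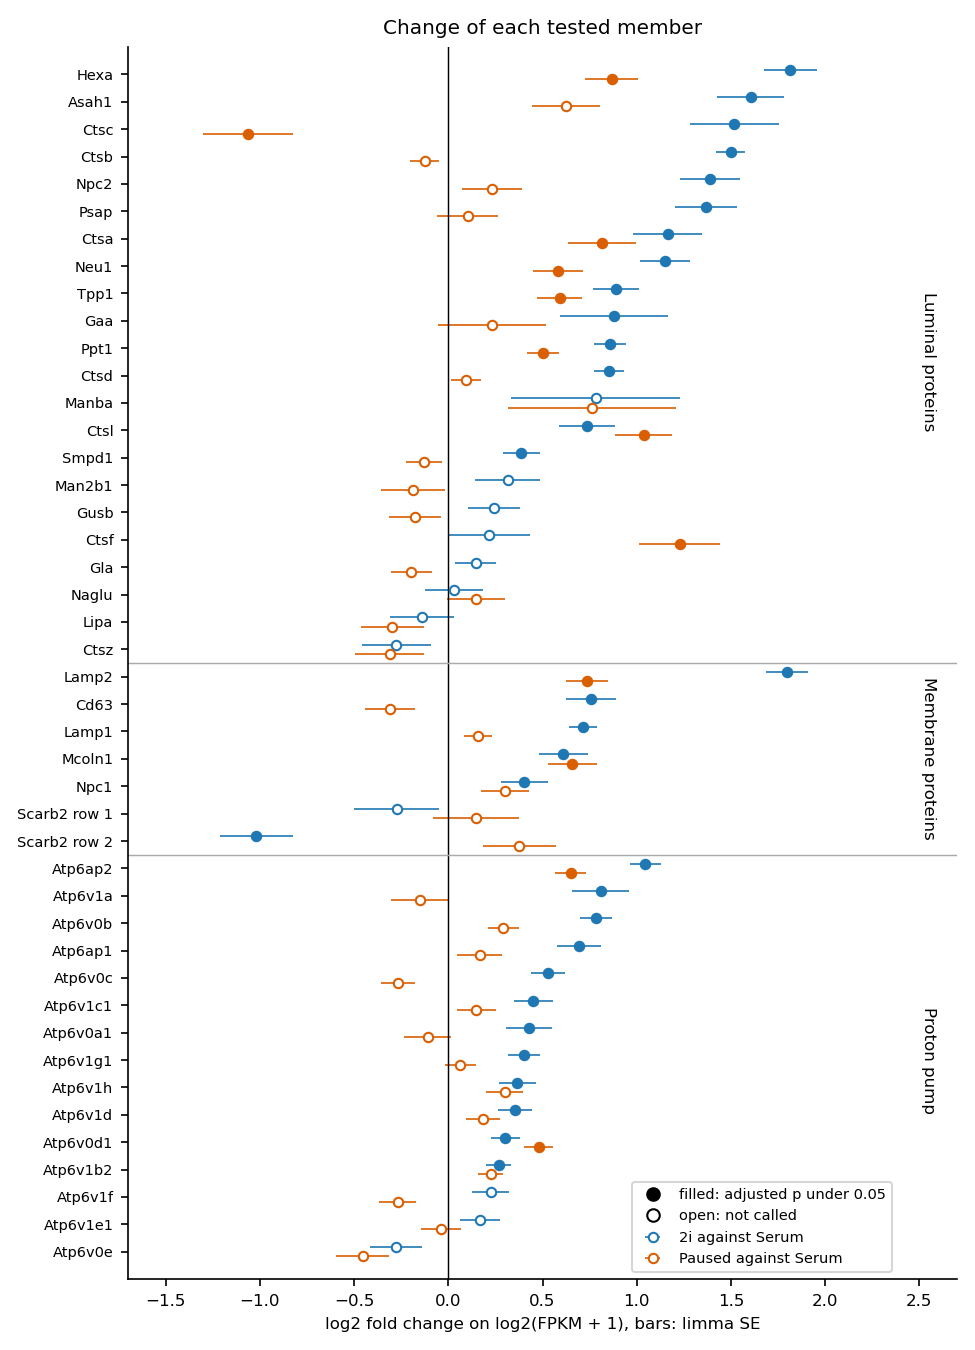
Log2 fold change on log2(FPKM + 1) (x axis) of the 44 tested member rows (y axis, by class) for 2i against Serum in blue and Paused against Serum in orange; bars are the limma standard error and filled points have an adjusted p under 0.05. Most blue points lie to the right of 0, while filled orange points are 11 to the right and Ctsc to the left.

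**Figure D4:**
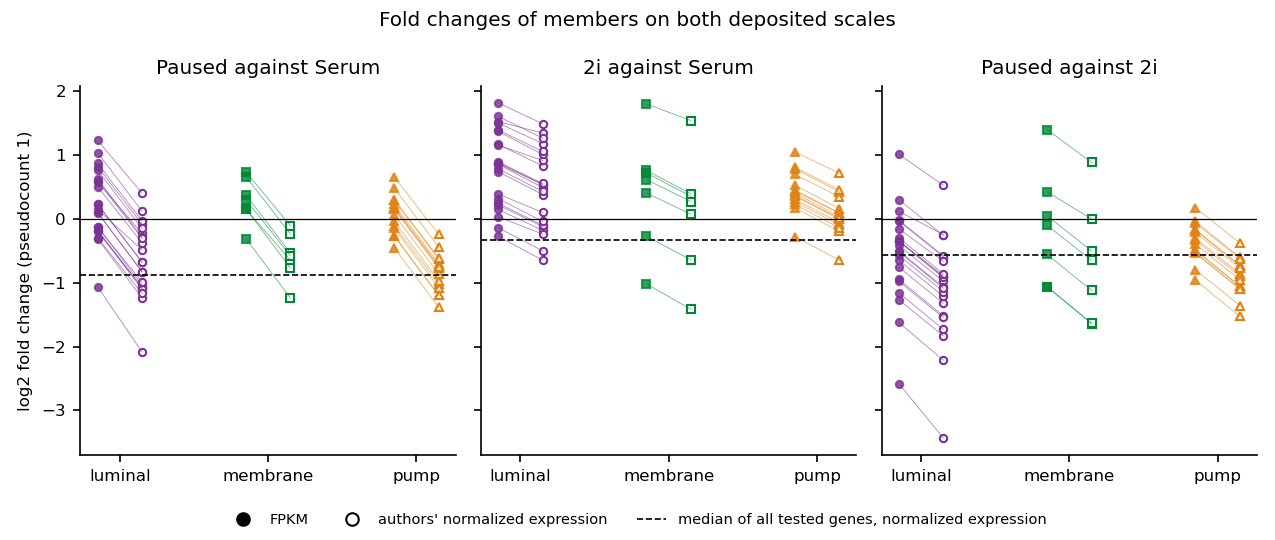
Log2 fold changes (y axis, pseudocount 1) of the 44 tested member rows in 3 comparisons, by class (x axis); filled markers are FPKM, open markers normalized expression, joined for each row, and the dashed line is the median of all tested rows in normalized expression. All rows shift down together from FPKM to normalized expression, and in Paused against Serum only Ctsf and Ctsl keep values above 0.

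The comparisons of 2i and of Paused with Serum share the Serum libraries, so their values are set side by side without a test. Of the member rows, 10 were called higher in both, 20 in 2i and not in Paused, and 1, Ctsf, in Paused and not in 2i, while Ctsc was lower in Paused and higher in 2i. The matching shares of all rows were not counted, so this overlap cannot be called particular to these genes. Taken singly, 21.7% of all rows were called higher in 2i and 7.64% in Paused. The direct comparison of Paused with 2i tests the difference itself: 2 rows were called higher in Paused and 23 lower, where 19.8% and 24.6% of all rows were. The members' median was -0.38, against -0.03 for all rows. By class 12 of 22 luminal rows, 3 of 7 membrane rows and 8 of 15 pump rows were lower. In FPKM the groups stood apart for 3 rows with Paused above and 23 with Paused below, where 23.6% and 28.3% of all rows did.

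Ctsc (-2.58 ± 0.24, adjusted p = 0.000903), Ctsb (-1.62 ± 0.08, adjusted p = 0.000259), Psap (-1.27 ± 0.16, adjusted p = 0.00214) and Npc2 (-1.16 ± 0.16, adjusted p = 0.00251) had the largest luminal falls by limma, and their library values are given above. Ctsf was the luminal row called higher in Paused (1.01 ± 0.21, adjusted p = 0.0108). Hexa was lower in Paused than in 2i (-0.95 ± 0.14), as were Asah1 (-0.98 ± 0.18) and Neu1 (-0.57 ± 0.13), while Ctsa (-0.35 ± 0.18, adjusted p = 0.163) and Ctsl (0.30 ± 0.15, adjusted p = 0.148) were not called. Among membrane proteins Cd63 (-1.07 ± 0.13, adjusted p = 0.00198), Lamp2 (-1.06 ± 0.11, adjusted p = 0.00126) and Lamp1 (-0.56 ± 0.07, adjusted p = 0.00239) were lower. Scarb2 on its row with the higher level rose (1.40 ± 0.19, adjusted p = 0.00268), and no other member row was called higher in Paused than in 2i in normalized expression (0.88). Mcoln1 differed by 0.05 ± 0.13 and was not called.

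The pump rows lower in Paused than in 2i were led by Atp6v1a (-0.96 ± 0.15, adjusted p = 0.00418) and Atp6v0c (-0.80 ± 0.09, adjusted p = 0.00149). Atp6v0a1, the V0 subunit through which protons pass, measured 12, 11.7 and 11.5 FPKM in Serum, 14.7, 15.6 and 18.4 in 2i and 12, 10.7 and 9.79 in Paused, the 2i libraries above all others (-0.54 ± 0.12, adjusted p = 0.0141). Atp6ap1 was lower too (-0.53 ± 0.12, adjusted p = 0.013). Limma called 0 pump rows higher, with 0 higher at an unadjusted p under 0.05, and Atp6v0d1 had the highest value of the class (0.18 ± 0.07, adjusted p = 0.0997). In normalized expression 38 member rows were lower and 1 higher, where 54.5% and 6.21% of all rows were, with a members' median of -0.94 against -0.56. In FPKM 15 to 26 member rows were lower with single libraries left out, where 15.9% to 24.4% of all rows were. Of the 25 member calls 16 held without any single library.

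Ratios of 2 genes within a library do not depend on the authors' constant. The 4 described here were chosen after the values were seen and carry no test. Ctsl over Ctsb was 3.16, 4.36 and 2.93 in Serum, 1.92, 1.97 and 1.97 in 2i and 8.83, 8.13 and 6.64 in Paused, with 3 separate ranges. Lamp2 over Lamp1 was 0.0562, 0.0351 and 0.0378 in Serum, 0.0997, 0.0896 and 0.107 in 2i and 0.0822, 0.0539 and 0.0665 in Paused. Within each line this ratio was lowest in Serum and highest in 2i. Atp6v1a over Atp6v1b2, the catalytic over the regulatory V1 subunit, was 0.544, 0.421 and 0.41 in Serum, 0.645, 0.656 and 0.701 in 2i and 0.495, 0.282 and 0.302 in Paused. It was lowest in Paused in each line, although E14 in Paused lay among the Serum values. The luminal sum over the pump sum was 0.518, 0.475 and 0.505 in Serum, 0.654, 0.901 and 0.687 in 2i and 0.707, 0.65 and 0.632 in Paused, so that all 6 libraries of 2i and Paused lay above the Serum ones. Both sums weigh abundant genes most, and the row medians for Paused against Serum were 0.19 (luminal) and 0.15 (pump).

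**Figure D5:**
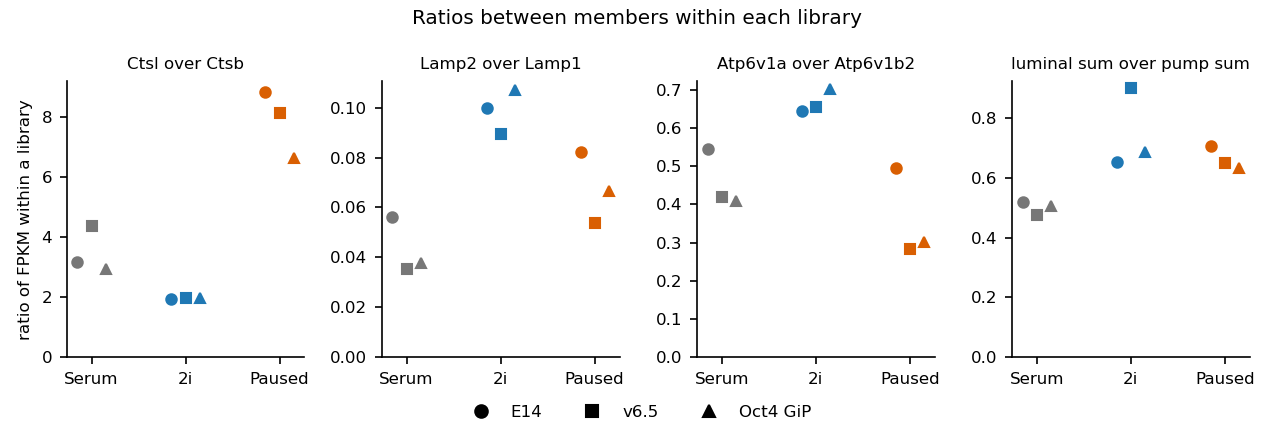
Ratio of FPKM within a library (y axes, starting at 0) for 3 pairs of member genes and for the luminal over the pump sum, by condition (x axis), with circles for E14, squares for v6.5 and triangles for Oct4 GiP. Ctsl over Ctsb lies between 6.64 and 8.83 in Paused and between 1.92 and 1.97 in 2i.

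Few rows were called between the lines, among these genes as among all rows. The F test over the 3 lines called 1 of 44 member rows, where 1.5% of all rows were called. That row was Atp6v1b2, the B subunit of the V1 head, with 61.8, 87.7 and 92.2 FPKM in Serum, 75.9, 107 and 108 in 2i and 70.5, 104 and 110.1 in Paused (adjusted p = 0.037 by limma). E14 had the lowest value in each condition, 0.51 ± 0.07 below v6.5 on the log2 scale (adjusted p = 0.0307). Atp6v1g1, a stalk subunit, was lower in v6.5 than in E14 by its own contrast (-0.48 ± 0.08, adjusted p = 0.0488) and was not called by the F test (adjusted p = 0.074). It measured 72.7, 56 and 64 FPKM in Serum, 98, 66.1 and 93.7 in 2i and 76.1, 53.5 and 73.2 in Paused. In v6.5 against E14, 1.53% of all rows were higher and 0.551% lower. Lamp1, Atp6v0d1 and Man2b1 came next, each at an adjusted F p of 0.0876. Man2b1 measured 13.2, 24.5 and 18.9 FPKM in Serum, 13.2, 35.3 and 25.9 in 2i and 11.5, 17.2 and 20.4 in Paused, with E14 lowest in each condition. With any single library left out limma called 0 member rows between lines, with 10 to 15 at an unadjusted p under 0.05, and in normalized expression it called 0 (12 at an unadjusted p under 0.05), where 0.496% of all rows were called.

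The remaining members were called in few comparisons or in none. Gla and Gusb, a galactosidase and a glucuronidase, ran from 3.75 to 5.48 and from 7.07 to 13.3 FPKM, and were called only as lower in Paused than in 2i (-0.34 ± 0.11 and -0.42 ± 0.14). Manba, a mannosidase, varied widely among libraries of a condition and measured 20.4 to 90.7 FPKM over the 9 (0.78 ± 0.45, adjusted p = 0.205 for 2i against Serum). Naglu (0.786 to 1.5 FPKM), Lipa (0.687 to 3.12 FPKM), Manba and Ctsz were called in no comparison in FPKM, nor were Man2b1, Atp6v0e and Atp6v1e1 (58.9 to 80.5 FPKM). Among pump genes, Atp6v1c1 (35.9 to 58.1 FPKM), Atp6v1d (41.3 to 58.1 FPKM) and Atp6v1h (24 to 37.5 FPKM) were called in 2i against Serum alone, by 0.45 ± 0.10, 0.35 ± 0.09 and 0.37 ± 0.10. Ctsh ran from 0.0191 to 0.375 FPKM and Ctso from 0.00851 to 0.174 FPKM.

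Other genes of the same organelle, from lists that do not hold the members, were read in the same fit. Of 25 tested rows of other luminal proteins, 17 were higher and 1 lower in 2i than in Serum, and 6 were higher and 0 lower in Paused than in Serum (1 lower at an unadjusted p under 0.05). In normalized expression the same rows gave 8 higher and 1 lower in 2i, and 0 higher and 15 lower in Paused. Of all rows, 21.7% were higher in 2i than in Serum and 7.64% in Paused than in Serum in FPKM, and 9.76% and 0.378% in normalized expression, where 35.7% and 76.9% were lower. Dnase2a, the acid nuclease, had the largest value in 2i, at 3.92, 8.93 and 5.41 FPKM in Serum, 22.9, 39.2 and 28.4 in 2i and 6.67, 10.6 and 11.7 in Paused (2.17 ± 0.15, adjusted p = 0.000791 for 2i against Serum). Grn, progranulin, was higher in 2i (1.51 ± 0.18) and in Paused (0.76 ± 0.18, adjusted p = 0.0348). Of 24 rows of other membrane proteins, 9 were higher and 0 lower in 2i (0 lower at an unadjusted p under 0.05), led by Ostm1 (1.13 ± 0.15), Tmem192 (1.07 ± 0.13) and the cystine exporter Ctns (1.02 ± 0.10). In Paused 3 of the 24 were higher, Ctns (0.67 ± 0.10), Tmem106b (0.48 ± 0.10) and the chloride exchanger Clcn7 (0.41 ± 0.09), and Sidt2 was lower (-0.61 ± 0.11, adjusted p = 0.0203). In normalized expression 4 of the 24 were higher and 1 lower in 2i, and 0 higher and 19 lower in Paused.

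Of 10 rows of other pump genes, 5 were higher in 2i than in Serum, where 21.7% of all rows were. In Paused 1 was higher and 1 lower than in Serum, near the shares of all rows (7.64% and 10.5%). In normalized expression 1 was higher in 2i, and 0 were higher and 8 lower in Paused. Tcirg1, the a3 subunit of V0, was higher in 2i and lower in Paused than in Serum, at 5.32, 7.43 and 4.63 FPKM in Serum, 8.56, 10.9 and 9.63 in 2i and 2.78, 2.57 and 2.11 in Paused (-0.95 ± 0.14, adjusted p = 0.0141 for Paused against Serum, 0.67 ± 0.14, adjusted p = 0.0122 for 2i against Serum). Dmxl1, of the complex that helps V1 join V0, was higher in both (0.90 ± 0.10 in 2i and 0.70 ± 0.10 in Paused). Of 14 genes that tag and sort hydrolases by mannose 6-phosphate, 5 were higher and 1 lower in 2i, and 2 were higher in Paused; in normalized expression 2 were higher and 2 lower in 2i, and 0 higher and 11 lower in Paused. The 2 called higher in FPKM were Gnptg of the tagging enzyme (0.78 ± 0.15, adjusted p = 0.0219) and Igf2r, the large mannose 6-phosphate receptor (0.68 ± 0.08, adjusted p = 0.0125). Sort1, a sorting receptor, was the gene lower in 2i (-0.84 ± 0.24, adjusted p = 0.031). In Paused against 2i, 11 of 25 other luminal rows, 11 of 24 other membrane rows, 4 of 10 other pump rows and 4 of 14 sorting rows were lower, where 24.6% of all rows were, so that the share of the sorting rows was near that of all rows. In normalized expression 18, 20, 8 and 11 of them were lower, where 54.5% of all rows were. Among these falls were those of Tcirg1 (-1.62 ± 0.14) and of Ap1s1, a subunit of the AP-1 sorting coat (-1.29 ± 0.20).

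The TFE factors are regulated in large part by where in the cell they sit, which RNA levels do not show. Of 6 tested rows of TFE factors and folliculin proteins, 3 were higher and 1 lower in 2i than in Serum, and 3 were higher in Paused than in Serum. Of all rows 21.7% were higher and 18.9% lower in 2i, and 7.64% were higher in Paused. In normalized expression 1 of the 6 was higher and 1 lower in 2i, and 0 were higher and 2 lower in Paused. Their median in Paused was -0.31 on that scale, against -0.88 over all rows. Tfeb measured 26.9, 6.26 and 13.3 FPKM in Serum, 29.5, 13.1 and 25.9 in 2i and 17.9, 7.39 and 30.0 in Paused and was not called in any comparison, with v6.5 lowest in each condition. Tfe3 measured 49.5, 57.5 and 45.2 FPKM in Serum, 34.5, 30.1 and 31.5 in 2i and 57.1, 51.9 and 58.8 in Paused, the 2i libraries below all others (-0.64 ± 0.12, adjusted p = 0.00742 for 2i against Serum). Mitf measured 2.48, 0.594 and 1.05 FPKM in Serum, 8.88, 7.86 and 8.08 in 2i and 1.84, 1.34 and 2.95 in Paused, the 2i libraries above all others (2.04 ± 0.25, adjusted p = 0.00244). Folliculin and its partners, which act on the Rag GTPases that hold mTORC1 at the lysosome, were higher in Paused than in Serum in FPKM: Fnip1 (0.99 ± 0.09, adjusted p = 0.00963), Fnip2 (0.60 ± 0.12, adjusted p = 0.027) and Flcn (0.54 ± 0.09, adjusted p = 0.0178). In normalized expression Fnip1 (0.22) and Fnip2 (-0.26) were not called and Flcn was called lower (-0.36). Fnip1 measured 3.88, 4.09 and 3.63 FPKM in Serum, 5.95, 6.71 and 6.21 in 2i and 8.82, 8.89 and 8.29 in Paused, 3 ranges without overlap. Of the members with a promoter window, CACGTG was present in 5 of 11 called higher in Paused against Serum and in 8 of 23 not called, and in 9 of 24 called higher in 2i against Serum and 4 of 11 not called. Mcoln1, Atp6v0d1, Ctsa and Ctsl, all with the letters, were called higher in both comparisons, and Lamp1, with 4 copies, in 2i alone. Lamp2, Hexa, Neu1, Ppt1, Tpp1 and Atp6ap2, without the letters in their windows, were also called higher in both.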

How the data were processed

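Per the labels' protocols, total RNA of 9 mouse embryonic stem cell cultures, 250 ng each with ERCC spike-in RNA, went into libraries made with a directional kit. The deposited table has 18 columns of values, a pair for each library; 0 of them were left without a sample. FPKM columns were made with Cuffnorm on mm10, per the submitters' processing notes. The second, deposited by the authors as normalized expression, is a score equal to FPKM times 1 constant per library, as read from the values; the origin of the constant, the aligner, the annotation, the strand setting and Cuffnorm's own scaling are likewise not given in the sources. There are no read counts, so depth is unknown. Summed FPKM ran from 1451983 to 2133969 per library, and rows without a gene name (5644 of 29801) were left out with 113 identical repeats. The rows without a name held from 52.8% (v6.5 Paused) to 64.0% (E14 Serum) of the summed FPKM of a library.

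Rows reaching FPKM 1 in at least 3 libraries were fitted with limma-trend (limma 3.58.1, R 4.3.3) on log2(FPKM + 1), with condition and cell line as terms, and adjusted by Benjamini-Hochberg over 12711 rows. Because the cell line is a term, a constant difference between lines does not enter the error of the condition tests. That error reflects how unevenly a difference between conditions repeats from line to line, which may be partly technical. The fit was tested on simulated data. The line pairs the libraries by its label; deviations from condition means correlated across genes at -0.0008 to 0.401 in 9 same-line pairs and -0.243 to 0.0938 in 18 other pairs. Members, lists and tests were chosen with earlier results of these data known. Members given with all library values are, per comparison, class and direction, the 4 called with the largest change (with none called, the 1 largest), the 4 with the smallest line F p, and the 2 highest in level per class; from other lists, at most 3 called genes per comparison. Some genes of those lists are counted and their own values are not reported here. Alternatives were another pseudocount (0.1), no filter or FPKM of 5, centring on the median gene, the authors' scaled columns, no line block, only the 6 libraries compared, a correction for GC content and transcript length, and each library left out. That correction subtracted a smooth fit on both from each library (mgcv 1.9.3) before limma, over the 12002 tested rows with a known length and GC content. Positions are from GENCODE vM21, promoter windows from RefSeq on GRCm38.p6.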

Additional observations from a re-analysis of the deposited data

How the results depend on the processing

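Main member counts in FPKM were 11 higher and 1 lower for Paused against Serum, 31 and 1 for 2i against Serum, 2 and 23 for Paused against 2i, and 1 row between lines. Of all rows 7.64% and 10.5%, 21.7% and 18.9%, 19.8% and 24.6%, and 1.5% were called. On the authors' scaled columns the member counts became 0 and 31, 15 and 3, 1 and 38, and 0. The shares of all rows there were 0.378% and 76.9%, 9.76% and 35.7%, 6.21% and 54.5%, and 0.496%. There the members' median for Paused against Serum turned to -0.72, and 9 of the 11 rows called higher turned below 0: Ctsa -0.083, Lamp2 -0.11, Hexa -0.031, Neu1 -0.23, Ppt1 -0.38, Tpp1 -0.31, Mcoln1 -0.24, Atp6v0d1 -0.44 and Atp6ap2 -0.24. In 2i against Serum Atp6v0d1 (-0.060), Atp6v1b2 (-0.10) and Atp6v1d (-0.0080) turned likewise; multiplying a library by 1 constant shifts all its rows. Without the line block (no replicate block) the member counts were 9 and 0, 27 and 1, and 2 and 21, with Ctsc, Mcoln1 and Atp6v0d1 no longer called in Paused against Serum. Of all rows 4.92% and 7.68%, 18.3% and 16.1%, and 16.5% and 21.2% were called. With no filter on low values, which put 20460 rows in the fit, the member counts were 9 and 0, 28 and 1, 2 and 22, and 0 between lines. Of all those rows 2.99% and 5.03%, 13.6% and 12.7%, 12.3% and 15.9%, and 0.0489% were called. With only the 6 libraries of the conditions compared the member counts were 12 and 2, 20 and 1, and 2 and 21. Of all rows 8.87% and 12.5%, 12.9% and 10.5%, and 15.8% and 20.1% were called. Centring each library on its median gene gave 3 member rows higher in Paused than in 2i (25% of all rows), and 23 higher in 2i than in Serum (17.2%). Correcting for GC content and transcript length also gave 3 higher in Paused than in 2i (22.2% of the 12002 rows in that fit), and 18 lower (21%). The cause of these moves was not tested. With single libraries left out, the member rows called higher ran from 0 to 15 for Paused against Serum (lower 0 to 2), from 20 to 32 for 2i against Serum (lower 1 to 2) and from 1 to 2 for Paused against 2i (lower 15 to 26), and 0 member rows were called between lines. Over all rows the shares higher ran from 0.0551% to 10.8%, from 12.9% to 21.6% and from 11.9% to 19.8% in the same order. The shares lower ran from 0.0315% to 14.6%, from 10.5% to 21.2% and from 15.9% to 24.4%. Of the called member rows, 0 of 12, 20 of 32 and 16 of 25 stayed called without any single library. The table holds no counts, so the limit set by depth on low genes such as Ctsh and Ctso is unknown.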
